A study of Homo sapiens with 3 samples.

Results

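YAP1, WWTR1, TEAD1, TEAD4, CYR61, CTGF, ANKRD1, AMOTL2, LATS2 and AXL are 10 genes of the YAP and TEAD transcription system, and all 10 were found among the 19224 gene symbols of the deposited table. They were named as a list with earlier results of these data known. Each gene was read from the transcript with the most counts summed over the 3 libraries. Those sums ran from 363 for ANKRD1 to 52252 for AXL, and they chose the rows only. The libraries came from 5637 cells, an established human bladder cancer line labelled wild type, after transfection with a lipid reagent. Of the 3 libraries, 2 were made after siRNA directed at CDCA3, named siCDCA3-1 and siCDCA3-2, and 1 after a control siRNA, named siNC. The series asks which genes lie downstream of CDCA3, a cell division cycle associated gene with a role in mitotic entry. The labels give no time after transfection, and they leave unsaid if the siCDCA3 numbers stand for separate siRNA sequences or for repeats.

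YAP1 and the WWTR1 product, known as TAZ, are coactivators that do not bind DNA themselves. When the Hippo kinases are inactive they enter the nucleus and bind TEAD factors, which carry them to target genes. When the kinases LATS1 and LATS2 are active they phosphorylate both coactivators, which then stay in the cytoplasm or are degraded. CYR61, CTGF, ANKRD1, AMOTL2, LATS2 and AXL are widely used as target genes of this system. LATS2 and AMOTL2 also restrain it, so their induction is known as negative feedback. Regulation of the coactivators acts largely on the proteins, which were not measured here.

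Gene-level counts summed to 40420562 in siCDCA3-1 and 62389920 in siCDCA3-2, against 50912733 in siNC. CDCA3 itself had an RPKM (a read count divided by transcript length and by 1 total per library) of 0.574 in siCDCA3-1 and 1.40 in siCDCA3-2, against 5.52 in siNC. Of 11 urothelial or epithelial markers 9 had a mean RPKM of at least 1, whereas none of 4 leukocyte and none of 3 endothelial markers did. The uroplakin genes UPK1B and UPK2, markers of mature urothelium, were the 2 epithelial markers under that level. The summed RPKM of the epithelial markers was 1850 in siCDCA3-1 and 1426 in siCDCA3-2, against 2287 in siNC. That of 5 fibroblast or mesenchymal markers was 17.0 and 11.7, against 15.5 in siNC. Only 2 of these 5, COL1A1 and VIM, had a mean RPKM of at least 1. COL1A1 had an RPKM of 8.33 in siCDCA3-1 and 2.26 in siCDCA3-2, against 6.96 in siNC. VIM had 8.53 and 9.33, against 8.38 in siNC. The epithelial markers did not move as a group. KRT5, KRT17, KRT19 and TP63 were below siNC in both siCDCA3 libraries, whereas KRT8, CDH1, GATA3 and KRT18 were at 156%, 125%, 109% and 107% of siNC in siCDCA3-1 and below it in siCDCA3-2, and EPCAM was at 64.6% in siCDCA3-1 and 168% in siCDCA3-2. Their part in the members' values was not tested. In bulk RNA, fewer cells of a kind and less RNA per cell cannot be told apart. There is 1 library for each siRNA label, so values are given per library, and intervals are exact 95% binomial intervals that cover counting error only.

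Among the 10 genes, CYR61, AXL and ANKRD1 had more RNA in both siCDCA3 libraries than in siNC. YAP1 was above siNC in siCDCA3-1 and close to it in siCDCA3-2. WWTR1, TEAD1, TEAD4 and LATS2 were below siNC in siCDCA3-1 and above it in siCDCA3-2. CTGF and AMOTL2 showed the opposite order. The siCDCA3 libraries thus lay on opposite sides of siNC at 6 of the 10 genes. Such a split was common among all genes. Of the 10153 genes averaging an RPKM of 1 or more, 30.8% were lower in siCDCA3-1 and higher in siCDCA3-2, and 17.8% the reverse.

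**Figure D1:**
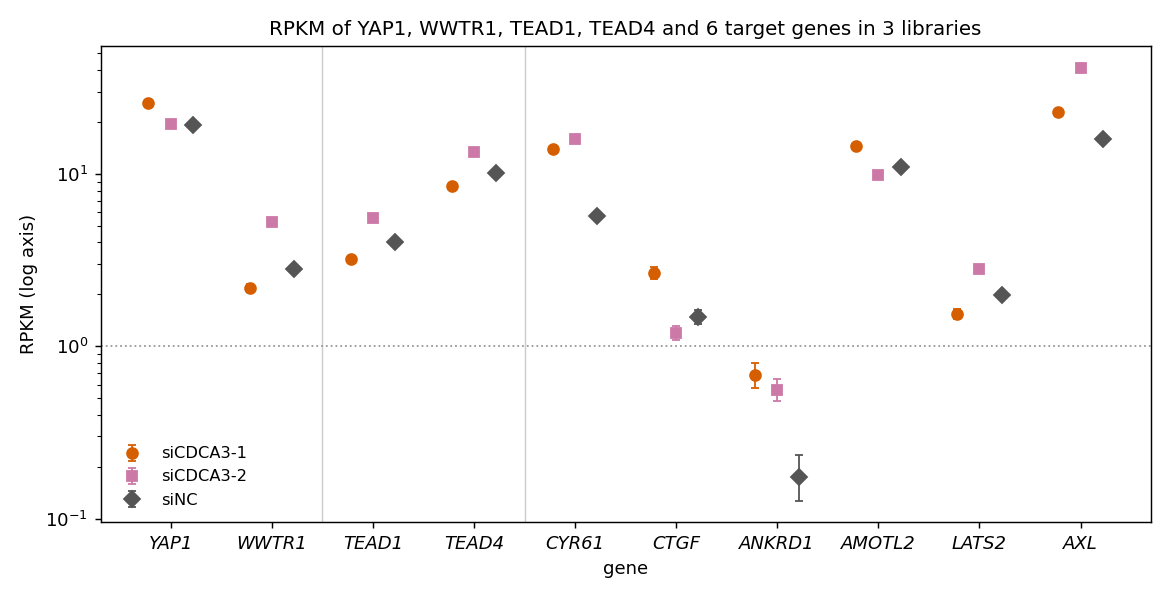
RPKM (log axis) of the 10 genes in siCDCA3-1, siCDCA3-2 and siNC, 1 point per library with its exact 95% Poisson counting interval, grouped by grey lines into coactivators, TEAD factors and target genes. The dotted line marks an RPKM of 1, and ANKRD1 lies under it in every library, while CYR61 and AXL lie above their siNC point in both siCDCA3 libraries.

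YAP1 (NM_001282101.1; chromosome 11, 102110447 to 102233424 on GRCh38) had an RPKM of 25.9 in siCDCA3-1 and 19.5 in siCDCA3-2, against 19.1 in siNC. These rest on 14559 counts in siCDCA3-1 and 16895 in siCDCA3-2, against 13446 in siNC. It was the most abundant member in siCDCA3-1 and in siNC. In siCDCA3-1 its level was 136% of siNC, with a counting interval of 132% to 139%. In siCDCA3-2 it was 102%, with an interval of 99.8% to 104%, so the siCDCA3-2 interval includes the siNC level. The direction in siCDCA3-2 depended on the scaling. The log2(RPKM + 1) difference from siNC was 0.03 with the deposited RPKM, -0.03 after TMM rescaling and -0.02 after median-of-ratios rescaling.

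WWTR1 (NM_015472.4; chromosome 3, 149517235 to 149724788 on GRCh38) had an RPKM of 2.18 in siCDCA3-1 and 5.27 in siCDCA3-2, against 2.79 in siNC. Its level was 78.0% of siNC in siCDCA3-1 (72.4% to 84.0%) and 188% in siCDCA3-2 (178% to 199%). The siCDCA3 libraries differed from each other more at WWTR1 than at any other of the 10 genes, with siCDCA3-2 at 242% of siCDCA3-1 (226% to 258%). On the RPKM scale, which accounts for transcript length, WWTR1 was the minor coactivator in every library. It amounted to 8.42% of the YAP1 level in siCDCA3-1 and 27.0% in siCDCA3-2, against 14.6% in siNC. The summed RPKM of the coactivators was 28.1 and 24.7 in the siCDCA3 libraries, against 21.9 in siNC.

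TEAD1 (NM_021961.5, GRCh38 chromosome 11, 12674421 to 12944737) and TEAD4 (NM_003213.3, GRCh38 chromosome 12, 2959397 to 3040676) encode DNA-binding factors of the same family. TEAD1 had an RPKM of 3.21 in siCDCA3-1 and 5.56 in siCDCA3-2, against 4.02 in siNC, which is 79.9% (76.4% to 83.6%) and 139% (134% to 143%) of the siNC level. TEAD4 had 8.48 in siCDCA3-1 and 13.4 in siCDCA3-2, against 10.1 in siNC, which is 84.1% (78.9% to 89.7%) and 132% (126% to 139%). Both genes were therefore lowest in siCDCA3-1 and highest in siCDCA3-2. The ratio of the TEAD4 RPKM to the TEAD1 RPKM was nearly the same in every library, at 2.64 in siCDCA3-1 and 2.40 in siCDCA3-2, against 2.51 in siNC.

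The remaining TEAD genes had the reverse order of libraries, and they are given because the TEAD pool depends on them. TEAD2 had an RPKM of 29.9 in siCDCA3-1 and 13.0 in siCDCA3-2, against 21.5 in siNC, and it was the most abundant TEAD gene in siCDCA3-1 and in siNC. TEAD3 had 7.40 and 4.30 in the siCDCA3 libraries, against 6.94 in siNC. The summed RPKM of the 4 TEAD genes was 49.0 in siCDCA3-1 and 36.2 in siCDCA3-2, against 42.6 in siNC. TEAD4 made up 17.3% of that sum in siCDCA3-1 and 36.9% in siCDCA3-2, against 23.7% in siNC, and in siCDCA3-2 the RPKM of TEAD4 and TEAD2 were close, at 13.4 and 13.0.

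**Figure D2:**
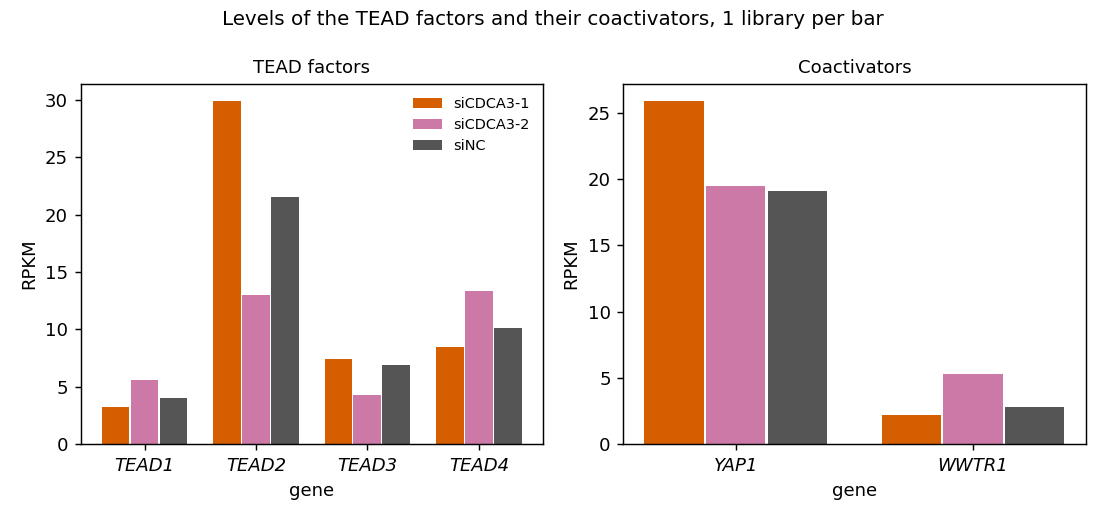
RPKM of TEAD1 to TEAD4 (left) and of YAP1 and WWTR1 (right) in siCDCA3-1, siCDCA3-2 and siNC, 1 library per bar and axes from 0. TEAD1, TEAD4 and WWTR1 are highest in siCDCA3-2, whereas TEAD2, TEAD3 and YAP1 are highest in siCDCA3-1, with TEAD2 at 29.9 there against 13.0 in siCDCA3-2.

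CYR61 (now CCN1; NM_001554.4, GRCh38 chromosome 1, 85580761 to 85583950) encodes a secreted matrix-associated protein that binds integrins. It had 3333 counts in siCDCA3-1 and 5882 in siCDCA3-2, against 1712 in siNC. Its RPKM was 13.9 in siCDCA3-1 and 16.0 in siCDCA3-2, against 5.72 in siNC. Its level was 244% of siNC in siCDCA3-1 (230% to 259%) and 279% in siCDCA3-2 (264% to 295%). The siCDCA3 libraries lay closer to each other than either lay to siNC, with siCDCA3-2 at 114% of siCDCA3-1 (110% to 119%).

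CYR61 was the sole member at least 2-fold above siNC in both siCDCA3 libraries on log2(RPKM + 1), with differences of 1.15 in siCDCA3-1 and 1.34 in siCDCA3-2. Of all 10153 genes averaging an RPKM of 1 or more, 10 were that far above siNC in both libraries, or 0.0985%, and no member was among the 73 genes, or 0.719%, that were 2-fold below it in both. CYR61 exceeded 99.5% of the 10153 genes in each siCDCA3 library. Taken singly, siCDCA3-1 had CYR61 and 0.847% of all genes at least 2-fold above siNC, and siCDCA3-2 had CYR61, AXL and 1.42% of all genes. Both differences are taken from the same siNC library, so they are not independent. Among the 5498 other genes averaging an RPKM of 5 or more, the 2 with the most similar pair of differences were ARHGDIB and SQLE, at Euclidean distances of 0.12 and 0.25 on the log2 scale. That likeness rests on 3 libraries only.

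AXL (NM_021913.4, GRCh38 chromosome 19, 41219223 to 41261766), a receptor tyrosine kinase activated by the ligand GAS6, had an RPKM of 22.7 in siCDCA3-1 and 40.9 in siCDCA3-2, against 16.0 in siNC. It was the most abundant member in siCDCA3-2. Its level was 142% of siNC in siCDCA3-1 (138% to 146%) and 256% in siCDCA3-2 (250% to 262%). The gap between the siCDCA3 libraries, with siCDCA3-2 at 180% of siCDCA3-1 (176% to 184%), was wider than the gap of siCDCA3-1 to siNC.

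ANKRD1 (NM_014391.2, GRCh38 chromosome 10, 90912096 to 90921087), an ankyrin repeat protein, was the least abundant member. It had 140 counts in siCDCA3-1 and 178 in siCDCA3-2, against 45 in siNC. Its RPKM was 0.681 in siCDCA3-1 and 0.561 in siCDCA3-2, against 0.175 in siNC. Its level was 390% of siNC in siCDCA3-1 (277% to 558%) and 321% in siCDCA3-2 (230% to 456%). These were the highest percentages of the 10 genes and also the ones with the widest counting intervals. The siCDCA3 libraries did not differ beyond counting error at ANKRD1, since siCDCA3-2 was at 82.4% of siCDCA3-1 with an interval of 65.7% to 104%. With a mean RPKM of 0.472, ANKRD1 fell short of the mean of 1 required for the tests.

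CTGF (now CCN2; NM_001901.2, GRCh38 chromosome 6, 131948176 to 131951372) is a secreted protein of the same CCN family as CYR61. It had 649 counts in siCDCA3-1 and 450 in siCDCA3-2, against 453 in siNC. Its RPKM was 2.66 in siCDCA3-1 and 1.20 in siCDCA3-2, against 1.48 in siNC. Its level was 179% of siNC in siCDCA3-1 (159% to 203%) and 80.7% in siCDCA3-2 (70.6% to 92.1%). CTGF and CYR61 therefore diverged in siCDCA3-2. The RPKM of CYR61 was 5.25 times that of CTGF in siCDCA3-1 and 13.4 times in siCDCA3-2, against 3.86 times in siNC.

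Promoter sequence is shown for CTGF and ANKRD1, target genes whose values parted in siCDCA3-2. The sequences come from RefSeq on GRCh38.p14, on the minus strand, and are limited to bases ahead of any exon of the gene annotated in GENCODE. Capitals mark GGAATG, a core letter string bound by TEAD factors, which was searched on both strands (CATTCC on the other). The CTGF sequence lies at chr6:131951374-131951622 and the ANKRD1 sequence at chr10:90921277-90921337.
CTGF: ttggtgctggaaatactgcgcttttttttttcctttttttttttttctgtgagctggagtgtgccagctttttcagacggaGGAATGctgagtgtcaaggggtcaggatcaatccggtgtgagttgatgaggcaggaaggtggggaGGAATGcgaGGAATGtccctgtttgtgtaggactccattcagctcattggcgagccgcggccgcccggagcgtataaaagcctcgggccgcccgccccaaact
ANKRD1: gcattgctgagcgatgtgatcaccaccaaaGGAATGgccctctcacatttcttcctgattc

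CTGF held 3 copies of GGAATG, beginning 169, 104 and 95 bases before the annotated start, all on the strand of the gene. ANKRD1 held 2, beginning 220 and 128 bases before it, of which only the first lies in the printed bases. In windows from 250 bases before to 50 bases after the start, 6 of the 7 members with an entry held the string at least 1 time, namely CTGF, ANKRD1, YAP1, AMOTL2, AXL and LATS2. WWTR1 had none in either of its windows, and CYR61, TEAD1 and TEAD4 had no entry. AMOTL2 and AXL held it in 1 of their 2 windows each, and in LATS2 it began at base 10 after the start. Counted per window, 6 of the members' 10 windows held the string, against 14.0% of all 35116 such windows. Among windows of genes averaging an RPKM of 1 or more the share was 11.2%. The list includes genes chosen as known targets of this system, so the comparison is not a test of the members. At least 2 copies were held by 1.37% of all windows, and at least 3 by 0.128%. A match describes the letters in the window and is not a measured binding site, and genes with matches were found both above and below siNC in siCDCA3-2.

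AMOTL2 (NM_016201.3, GRCh38 chromosome 3, 134355345 to 134375417), a member of the angiomotin family that holds YAP1 at cell junctions, had an RPKM of 14.6 in siCDCA3-1 and 9.88 in siCDCA3-2, against 10.9 in siNC. Its level was 134% of siNC in siCDCA3-1 (129% to 138%) and 90.7% in siCDCA3-2 (87.8% to 93.6%). LATS2 (NM_014572.2, GRCh38 chromosome 13, 20973036 to 21061586), the kinase that phosphorylates YAP1, had an RPKM of 1.54 in siCDCA3-1 and 2.80 in siCDCA3-2, against 1.99 in siNC. Its level was 77.6% of siNC in siCDCA3-1 (71.3% to 84.5%) and 141% in siCDCA3-2 (132% to 151%). The feedback genes thus differed in opposite ways in each siCDCA3 library. The RPKM of LATS2 was 1.08 times that of its relative LATS1 in siCDCA3-1 and 1.13 times in siCDCA3-2, against 0.880 times in siNC.

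**Figure D3:**
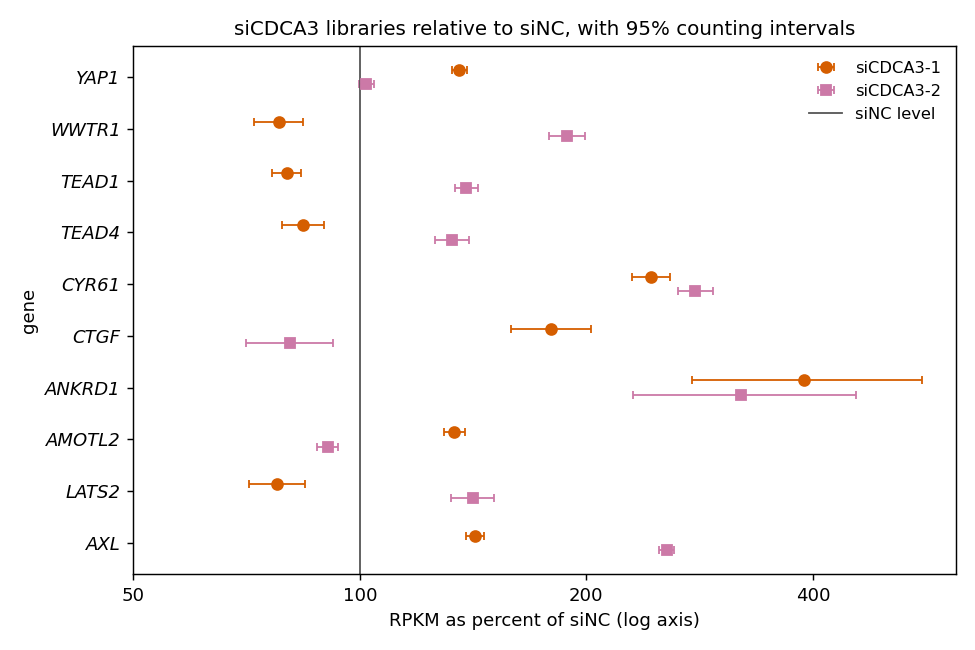
RPKM of each gene as a percent of its siNC level (log axis) in siCDCA3-1 (circles) and siCDCA3-2 (squares), with exact 95% binomial counting intervals and the siNC level as a line at 100. CYR61, ANKRD1 and AXL lie right of the line in both libraries, and WWTR1, TEAD1, TEAD4, LATS2, CTGF and AMOTL2 lie on opposite sides of it.

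By direction alone, 3 of the 9 members with a mean RPKM of at least 1 (YAP1, CYR61 and AXL) were higher than siNC in both siCDCA3 libraries, compared with 23.6% of all 10153 genes. None was lower in both, compared with 27.8% of all genes. WWTR1, TEAD1, TEAD4 and LATS2 were lower in siCDCA3-1 and higher in siCDCA3-2, as were 30.8% of all genes, and CTGF and AMOTL2 were the reverse, as were 17.8%. On log2(RPKM + 1) no member was 2-fold apart between the siCDCA3 libraries, as 8.63% of all genes were, and WWTR1 came nearest at 0.98. That count rests on the 1 added to the RPKM. With 0.5 added, WWTR1 was 1.11 apart and 11.4% of all genes were 2-fold apart. With 0.1 added, WWTR1 was 1.23 apart and CTGF, lower in siCDCA3-2, was at -1.09, while 14.9% of all genes were 2-fold apart. After TMM or median-of-ratios rescaling YAP1 joined CTGF and AMOTL2. The median log2(RPKM + 1) difference of the 9 members was 0.39 in siCDCA3-1 and 0.37 in siCDCA3-2, beside -0.07 and 0.05 over all genes tested. Across all genes the siCDCA3-1 difference had a Spearman correlation of 0.209 with transcript length, and its part in the members' values was not tested.

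The siCDCA3 libraries were also tested together against siNC with edgeR's quasi-likelihood test, adjusted over all 10153 genes. None of the 9 members passed an adjusted p of 0.05, where 0.0295% of all genes passed, or 3 genes, all lower. CYR61 had an edgeR log2 fold change of 1.39 with a standard error of 0.51 and an adjusted p of 0.9997. Before adjustment it was the sole member under 0.05, a level at which 0.355% of all genes were higher. AXL had an edgeR log2 fold change of 0.99 with a standard error of 0.55 and an adjusted p of 0.9997. DESeq2 and limma also called no member, beside 0.0985% and 0% of all genes. Without a filter on low values edgeR called none of the 10 members and 0.117% of all genes. The fit has a single residual degree of freedom and assumes that the lone siNC library varies like the siCDCA3 libraries, so missing the threshold is no evidence of an unchanged gene.

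Of 16 other commonly used YAP target genes, 15 averaged an RPKM of 1 or more. Among these 15, 7 (46.7%) were higher than siNC in both siCDCA3 libraries and 1 (6.67%), NUAK2, was lower in both, with median differences of 0.41 on log2(RPKM + 1) in each library. The shares over all genes tested were 23.6% and 27.8%. None of the 15 passed the edgeR, DESeq2 or limma test. The largest DESeq2 log2 fold changes of the 15 were 1.21 for NT5E and 1.08 for CRIM1.

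NT5E, the cell-surface enzyme CD73 that makes adenosine, had an RPKM of 5.18 in siCDCA3-1 and 11.9 in siCDCA3-2, against 3.66 in siNC. CRIM1, a transmembrane protein that binds bone morphogenetic proteins, had 4.49 and 5.92, against 2.48 in siNC. ASAP1, an activator of ARF GTP hydrolysis, had 9.34 and 8.20, against 5.92 in siNC, and DOCK5, a RAC exchange factor, had 2.61 and 2.89, against 1.71 in siNC. These 4 had the largest mean differences among the listed targets that lay on the same side of siNC in both libraries. IGFBP3, a secreted carrier of insulin-like growth factors chosen after its values were seen, had the widest gap between the siCDCA3 libraries on the list, at 228 in siCDCA3-1 and 7.69 in siCDCA3-2, against 153 in siNC.

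Of 28 listed upstream and partner genes of the Hippo pathway averaging an RPKM of 1 or more, 10 (35.7%) were higher than siNC in both siCDCA3 libraries and 8 (28.6%) were lower in both, beside 23.6% and 27.8% of all genes tested. They had median log2(RPKM + 1) differences of 0.01 in siCDCA3-1 and 0.08 in siCDCA3-2. None passed the edgeR, DESeq2 or limma test, and none had an unadjusted edgeR p under 0.05. STK3, a Hippo kinase that acts ahead of the LATS kinases, had an RPKM of 1.98 in siCDCA3-1 and 2.78 in siCDCA3-2, against 4.36 in siNC. SAV1, its scaffold, had 11.1 and 11.9, against 16.2 in siNC. AJUBA, a LIM protein that restrains the LATS kinases, had 27.5 and 23.2, against 40.7 in siNC, and VGLL3, a TEAD cofactor, had 1.36 and 1.50, against 0.730 in siNC.

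**Figure D4:**
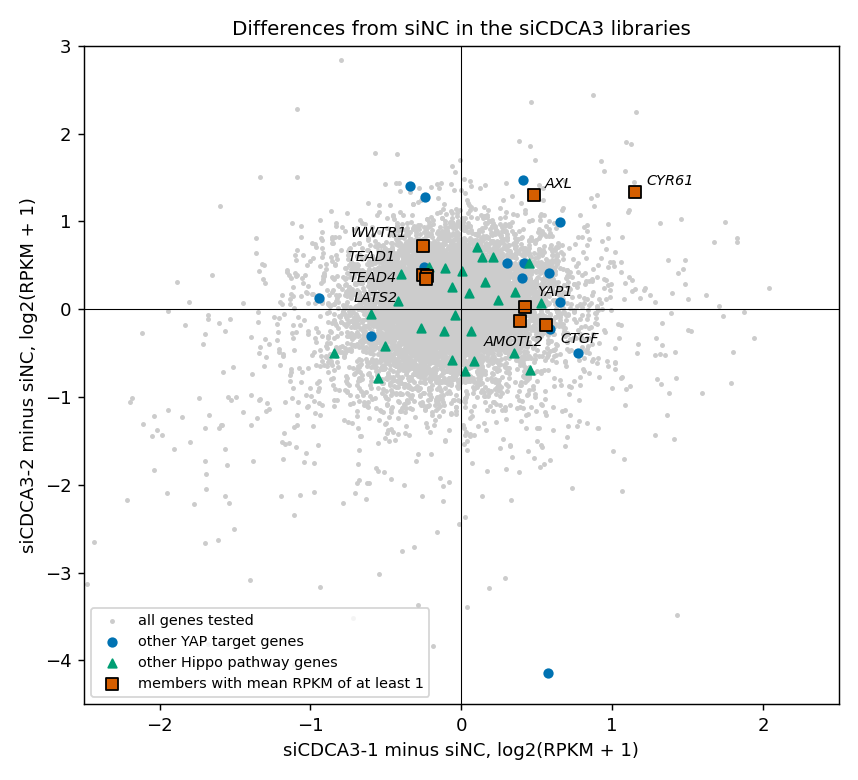
Difference from siNC on log2(RPKM + 1) in siCDCA3-1 (horizontal) and siCDCA3-2 (vertical) for the genes averaging an RPKM of 1 or more, with the 9 members labelled and the other YAP target and Hippo pathway genes coloured. Both axes share the siNC library, and 11 genes lie outside the axes. CYR61 sits at 1.15 and 1.34 in the upper right and AXL at 0.48 and 1.30, while WWTR1, TEAD1, TEAD4 and LATS2 sit together in the upper left.

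The choice of transcript had little bearing on these values. YAP1 had 9 transcripts in the table, and its level ran from 134% to 136% of siNC in siCDCA3-1 and from 102% to 106% in siCDCA3-2 over all of them. WWTR1, TEAD4, AMOTL2 and AXL had 3 transcripts each, and every transcript lay on the same side of siNC as the one used. Reads were counted again for each transcript they overlapped, so isoforms cannot be separated. In the GENCODE annotation, exons of YAP1, WWTR1, CTGF and AXL overlap an antisense gene over 628, 795, 195 and 67 bases in that order. Those of AMOTL2 overlap the pseudogene RPL39P5 over 187 bases. Use of strand in the counting is not stated in the labels or headers, so reads of these overlaps may be included. TEAD1, TEAD4, CYR61, ANKRD1 and LATS2 had no such overlap.

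For YAP1, the 3 genes averaging an RPKM of 5 or more and having the most similar pair of differences were CD276 and MFAP1, at distances of 0.01 each, and ASXL1, at 0.02. In all, 43 genes lay within 0.1 of YAP1, whereas 0 lay within 0.1 of CYR61. The CYR61 differences exceeded those of 99.5% of the 10153 genes in each siCDCA3 library, a range where few genes lie. These counts therefore add nothing to the sizes already given. The likeness to YAP1 also rests on 3 libraries only.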

How the data were processed

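Per the file headers, the table deposited for the 3 libraries holds the raw read count of each RefSeq transcript and its RPKM. RPKM were computed by the authors from the count, the transcript length and 1 total per library. Per the submitters' processing notes, reads were handled with Trimmomatic 0.36, FastQC, HISAT2 and HTSeq, and the listed genome builds carry no stated role. Of 103 symbols turned into dates, all but 1 were restored from the accession. Of the accessions, 98.6% matched the RefSeq table of GRCh38.p14, which gave coordinates. The members and lists were chosen with earlier results of these data known. Named are the members, CDCA3, the 4 genes of each wider list with the largest mean difference on the same side of siNC in both libraries, and the 3 nearest genes to CYR61 and to YAP1, of which 1 near CYR61 is not reported here. TEAD2, TEAD3, LATS1, NUAK2 and IGFBP3 were added after their values were seen. edgeR 4.0.16 (R 4.3.3, TMM, quasi-likelihood, two-sided, Benjamini-Hochberg) was run on the counts of genes averaging an RPKM of 1 or more. The step was also run on simulated data with changes larger than that of any tested member. That run does not show if changes of the members' size would be called. The alternative tests were DESeq2 1.42.0 on counts and limma 3.58.1 on log2(RPKM + 1), where adding 1 shrinks differences at low RPKM. Each standard error was obtained by dividing the size of the fold change (log2) by the root of its F statistic. edgeR weighted each gene's own variance by 1 residual degree of freedom and the variance shared across genes by 12.0 prior degrees of freedom. A gene's p-value and standard error therefore rest mostly on the shared variance. Nothing states that the siCDCA3 libraries came from separate cultures, so the variation between them may be technical. The siCDCA3 libraries differed by more than sampling noise, with 303 chi-square units per degree of freedom. That was more than siCDCA3-1 (136) or siCDCA3-2 (256) differed from siNC.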

Additional observations from a re-analysis of the deposited data

How the results depend on the processing

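No member was called under any test, scaling or filter, and none of the wider lists' genes was called under these or with the longest transcript. The longest transcript of each member was already the one used, so that alternative could not change the members' rows. Only 5 members were tested at a mean RPKM of at least 5. Over all genes, edgeR called 0 higher and 3 lower. It called 4 higher and 18 lower without a filter, and 0 lower at a mean RPKM of at least 5. DESeq2 called 2 higher and 8 lower, and limma called 0 lower. The causes were not tested. With a pseudocount of 0.1 the genes 2-fold higher in both siCDCA3 libraries numbered 32 in place of 10, and 2 members in place of 1, as ANKRD1 joined CYR61. The members 2-fold apart between the siCDCA3 libraries numbered 0, but 1 with a pseudocount of 0.5 (WWTR1) and 2 with 0.1 (WWTR1 and CTGF), alternatives chosen after seeing the data, and the count over all genes was 1512 with 0.1 in place of 876. The mean log2 difference of ANKRD1 was 1.39 with that pseudocount and 0.73 with 0.5, against 0.46 with 1. With 1 siCDCA3 library left out, 86 to 144 genes were 2-fold higher and 177 to 332 lower in the library that remained, against 10 and 73 in both. The members 2-fold higher numbered 1 to 2, the second being AXL in siCDCA3-2. No test was run with a siCDCA3 library left out, since no residual degree of freedom remains. The other mean differences of members moved by less than the spread between the siCDCA3 libraries under each scaling and pseudocount. No paired analysis was possible because siNC has a single library and its label carries no number. Depth limits ANKRD1 and CTGF most.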
